A study of Homo sapiens with 18 samples.

Results

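The genes described here encode subunits of the mitochondrial respiratory chain and of ATP synthase. They were taken by symbol: all 13 protein-coding genes of the mitochondrial genome (MT-ND, MT-CO, MT-CYB and MT-ATP), and 58 nuclear genes that match the NDUF, SDH, UQCR and COX subunit families, with NDUFA5 left out. These 71 members were picked from 63677 gene identifiers. The rule itself uses no measured value, but it was chosen with earlier results of these data known. By role, the mitochondrial genome holds 7 members of complex I, 1 of complex III, 3 of complex IV and 2 of ATP synthase. By name, the nuclear members are 36 of complex I, 4 of complex II, 8 of complex III and 10 of complex IV. NDUFA4 is among the 36 by its name, though it is now counted with complex IV.

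The tumours were xenografts, grown in mice from the human neuroblastoma lines SKNAS (SK-N-AS), LAN-1 and KELLY. For every line there were 3 RNA sequencing libraries of Control tumours and 3 of Hmx1 tumours, so that 18 libraries form 6 groups. All samples carry the treatment label None, and neither the direction of the Hmx1 change nor the species of the Hmx1 sequence is stated in them. A genotype of MYCN amplification stands on 2 of the KELLY control libraries only. By level, MYCN stood at 0 to 0.101 TPM in SKNAS, 741 to 898 TPM in LAN-1 and 948 to 2000 TPM in KELLY, over both arms. Comparisons of SKNAS with LAN-1 or KELLY thus also set very low against high MYCN, and its part in them was not tested. Host strain, animal age, sex and the number of animals are not given in the labels used here. GEO's labels do not tie libraries to separate animals, so p-values reflect only how far these libraries spread, and that spread may be technical.

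Oxidative phosphorylation moves electrons from NADH and succinate through complexes I, II, III and IV to oxygen, and ATP synthase uses the proton gradient that this builds. Complex II is coded by nuclear genes alone, while the other complexes join nuclear subunits with a core coded in the mitochondrial genome, so the 2 genomes have to supply parts of the same machines. Mitochondrial genes are read as long transcripts that are then cut into single mRNAs. MT-ATP8 and MT-ATP6 stay together on 1 mRNA, and MT-ND4L and MT-ND4 on another.

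Values are TPM, a level per length of gene, scaled to the same total in every library. In all, 18650 genes passed the minimum of 1 TPM in 3 libraries, all 71 members among them. HMX1 was listed at 0 in all SKNAS controls, against 0.193 to 1.24 TPM in the matching Hmx1 arm, at 11.1 to 11.9 and 11.5 to 16.5 TPM in LAN-1, and at 3.92 to 7.72 and 4.68 to 6.40 TPM in KELLY. So the human HMX1 level overlapped between the arms of LAN-1 and of KELLY. A list of neuroblastoma markers that includes HAND2, GATA3, DBH and CHGA summed to 1589 to 2420 TPM in SKNAS, 2832 to 4403 TPM in LAN-1 and 3678 to 5995 TPM in KELLY. KELLY control replicate 2 stood apart in mitochondrial share, as given below. The 9 skeletal muscle markers summed to 7.69 to 39.9 TPM in KELLY controls and 7.69 to 9.97 TPM in KELLY Hmx1 tumours. In SKNAS and LAN-1 they reached at most 7.90 TPM, and their part in the mitochondrial share was not tested. The sources used here do not say whether reads of mouse origin were removed.

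The sequences that bear on the largest mitochondrial difference are those shared by MT-ATP8 and MT-ATP6, and by MT-ATP6 and a nuclear copy of it. MT-ATP8 spans chrMT:8366-8572 and MT-ATP6 spans chrMT:8527-9207, both on the plus strand, so they share 46 bases. Capitals in the shared stretch mark the first codon of MT-ATP6 and the last codon of MT-ATP8.
MT-ATP8 and MT-ATP6, chrMT:8527-8572: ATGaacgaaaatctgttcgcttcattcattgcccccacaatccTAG
MTATP6P1, an unprocessed pseudogene on chromosome 1 (chr1:569076-569756 in the GRCh37 coordinates of the files), matches MT-ATP6 over all 681 bases, with 671 identical (98.53%). In a window of 60 bases at the same place in both genes, capitals mark the 3 bases that differ, and all else is shared.
MT-ATP6, chrMT:8642-8701: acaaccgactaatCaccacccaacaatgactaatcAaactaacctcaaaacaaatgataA
MTATP6P1: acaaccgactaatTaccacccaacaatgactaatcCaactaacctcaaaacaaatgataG
Copies of the neighbouring genes lie in the same stretch of chromosome 1. They share 97.58% to 99.43% of the aligned bases, and reads of genes so alike may have been split between gene and copy. Averaged over 18 libraries, MTATP6P1 stood at 2037 TPM, MTND2P28 at 1223 TPM and MTCO1P12 at 838.5 TPM, while the copies of the other 4 genes stood between 10.8 and 49.1 TPM. These sequences come from GENCODE v29.

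The 13 mitochondrial mRNAs made up 14.7%, 20.2% and 15.8% of all TPM in the SKNAS control libraries, and 18.1%, 16.2% and 13.05% in the SKNAS Hmx1 libraries. In LAN-1 they made up 5.85%, 5.68% and 4.99% of the controls, and 6.47%, 4.15% and 3.96% of the Hmx1 libraries. In KELLY they made up 30.6%, 11.8% and 27.0% of the controls, and 17.0%, 18.9% and 14.3% of the Hmx1 libraries. All 6 LAN-1 libraries lay below all 12 others, and KELLY control replicate 2 lay below all 3 KELLY Hmx1 libraries, while the other KELLY controls lay above them. Within each line the ranges of the control and Hmx1 arms overlapped. In bulk RNA, fewer cells of a type and less RNA per cell cannot be told apart.

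The 58 nuclear members together took 1.09% to 1.20% of TPM in the group means of SKNAS, LAN-1 and KELLY Hmx1, and 0.951% ± 0.154 (SD, n = 3) in KELLY controls. Once mitochondrial genes were taken out and the rest rescaled to the same total, their sum lay between 11933 and 14404 TPM in every library. The mean was 13811 ± 585 TPM in SKNAS controls, 12794 ± 92.6 TPM in LAN-1 controls and 12743 ± 530 TPM in KELLY controls (SD, n = 3 each). In the KELLY Hmx1 libraries it was 14034, 13456 and 13960 TPM, all above the KELLY controls at 12196, 12780 and 13254 TPM. So the rescaled nuclear sum spanned a narrow range. The ratio of mitochondrial to nuclear TPM, both as deposited, was 14.9 ± 2.66 in SKNAS controls, 4.59 ± 0.425 in LAN-1 controls and 25.8 ± 13.9 in KELLY controls (SD, n = 3). As deposited, the nuclear sum ran from 8072 TPM (a KELLY control) to 12482 TPM (a LAN-1 Hmx1 library), and it falls as the mitochondrial share rises. The mitochondrial sum ranged more widely, from 39548 TPM (LAN-1 Hmx1) to 305922 TPM (KELLY control).

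**Figure D1:**
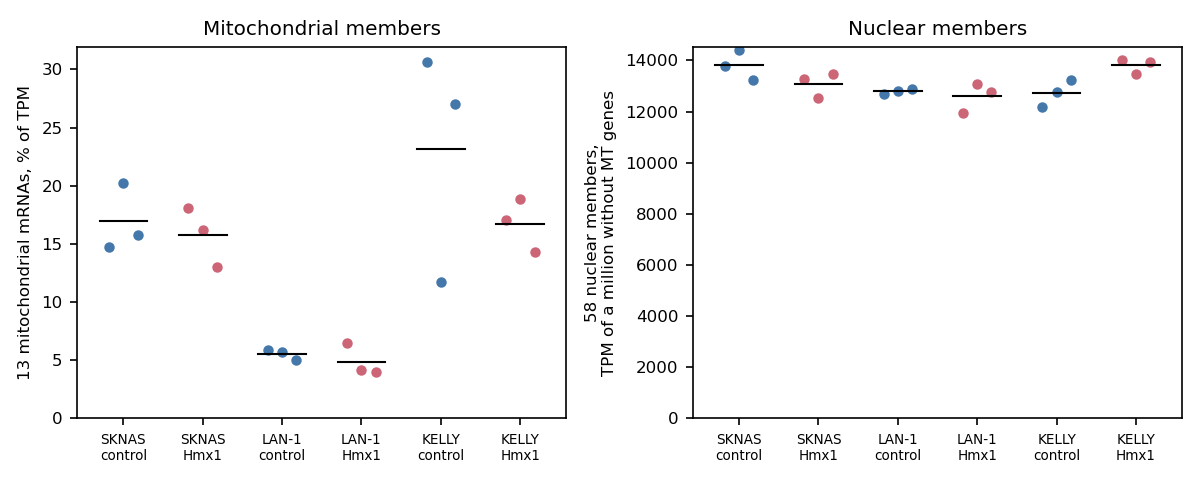
Summed level of the members in each of 18 libraries, by line and arm. Left, the 13 mitochondrial mRNAs as a percentage of TPM. Right, the 58 nuclear members in TPM rescaled without mitochondrial genes. Points are libraries and horizontal lines group means. LAN-1 libraries lie at 3.96% to 6.47% on the left, while on the right all libraries lie between 11933 and 14404 TPM.

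In SKNAS, the Hmx1 and control tumours differed in 1 mitochondrial and 1 nuclear member. MT-ATP6, the proton channel subunit of ATP synthase, was lower with Hmx1, and NDUFB9, an accessory subunit in the membrane arm of complex I, was higher. That is 1 of 13 and 1 of 58 called at a limma adjusted p under 0.05 (two-sided, Benjamini-Hochberg over all genes tested), where 8.76% of all genes tested were called in this comparison, 4.96% higher and 3.8% lower. The shares called among the members, 7.69% of the mitochondrial and 1.72% of the nuclear ones, did not exceed that background.

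MT-ATP6 stood at 20821, 28936 and 24885 TPM in SKNAS controls and at 7426, 6229 and 5400 TPM in SKNAS Hmx1 tumours. The arms did not overlap, and the lowest control was well above the highest Hmx1 library. On the log2(TPM + 1) scale the difference was -1.97 (SE 0.29, limma adjusted p = 0.00017), and it was called in the same direction in 13 of 13 alternative settings. Among the markers of other cells, PTPRC of leukocytes stood at 75.7 to 102 TPM in SKNAS controls and 187 to 285 TPM with Hmx1, and accounts for nearly all of that list's sum of 77.7 to 105 and 190 to 286.5 TPM. It was listed at 0 in every LAN-1 and KELLY library. CD14, of the same list, was called the other way, at 1.10, 1.26 and 1.65 TPM in controls and 0.732, 0.578 and 0.258 TPM with Hmx1 (-0.62, limma adjusted p = 0.028, kept in 4 of 8 alternatives), and CD68 lay between 0.0257 and 1.47 TPM without passing. The 6 fibroblast markers summed to 1118 to 1324 TPM in the controls and 787 to 885 TPM with Hmx1. Of these 6, 2 were called lower (limma), where 3.8% of all genes tested were. Their sum was far smaller in the other lines, at 14.9 to 47.7 TPM in LAN-1 and 47.2 to 139 TPM in KELLY over both arms. What these lists contribute to the SKNAS differences was not tested.

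The partner gene on the same mRNA did not share this difference. MT-ATP8, the small ATP synthase subunit next to MT-ATP6, stood at 14450, 19778 and 15406 TPM in SKNAS controls and 17445, 15782 and 11738 TPM in SKNAS Hmx1 tumours, overlapping (log2 difference -0.15, SE 0.32, limma adjusted p = 0.91). The ratio of MT-ATP6 to MT-ATP8 within a library does not depend on scaling between libraries. It was 1.44, 1.46 and 1.61 in SKNAS controls and 0.426, 0.395 and 0.460 in SKNAS Hmx1 tumours. In the 12 libraries of LAN-1 and KELLY it lay between 0.310 and 0.412. An exact two-sided permutation test on the log2 ratio gave p = 0.1 in SKNAS, the smallest p that 3 against 3 libraries allow, and this exact test gave p = 0.3 in LAN-1 and p = 0.5 in KELLY. The SKNAS controls were the group with the high ratio, and the SKNAS Hmx1 libraries lay next to the other lines.

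The nuclear copy did not move with MT-ATP6 either. MTATP6P1 stood at 1697, 3159 and 2580 TPM in SKNAS controls and 3162, 2538 and 2427 TPM with Hmx1. MT-ATP6 exceeded it by 9.16 to 12.3 times in SKNAS controls and by 2.22 to 2.46 times in SKNAS Hmx1 tumours. In LAN-1 and KELLY libraries the factor was 2.20 to 3.44. As a share of the 13 mitochondrial mRNAs, MT-ATP6 took 14.7% ± 0.889 in SKNAS controls, 4.03% ± 0.155 in SKNAS Hmx1 tumours and 3.11% to 3.71% in the other group means (SD, n = 3).

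**Figure D2:**
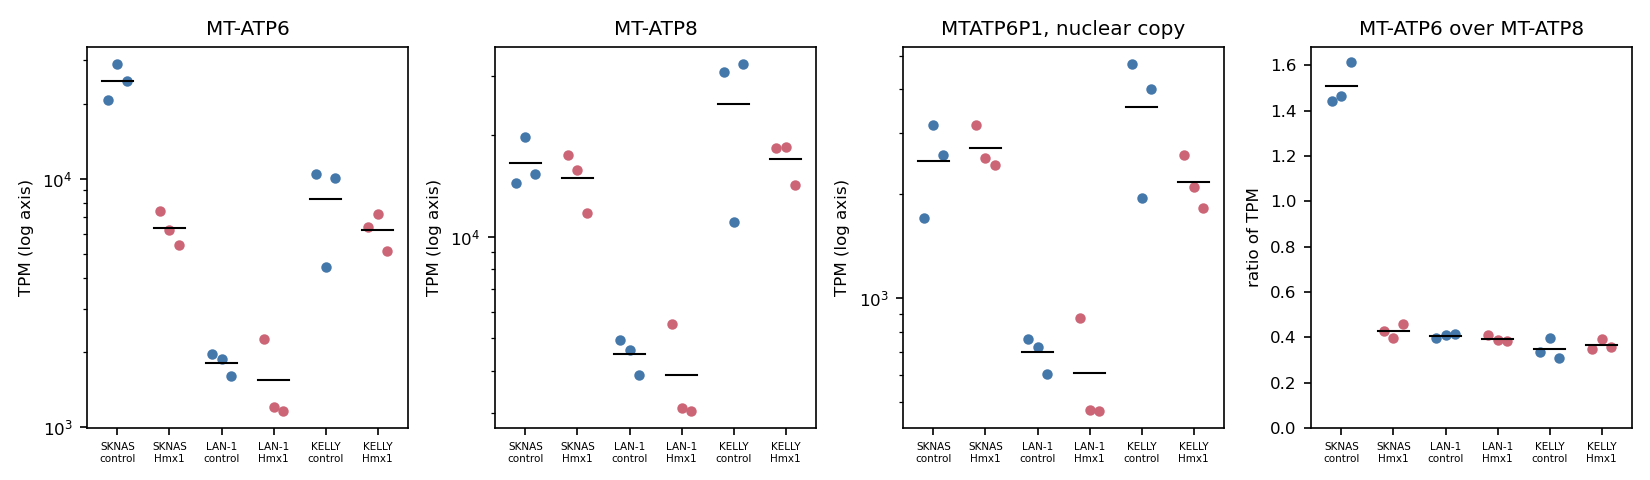
MT-ATP6, MT-ATP8 and the nuclear copy MTATP6P1 in TPM on log axes, and the ratio of MT-ATP6 to MT-ATP8, in 18 libraries by line and arm. Points are libraries and horizontal lines group means. The ratio is 1.44 to 1.61 in SKNAS controls and at most 0.460 in every other library.

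The remaining 11 mitochondrial mRNAs of SKNAS showed log2 differences between -0.11 (MT-CYB) and 0.24 (MT-ND5), and none passed the test. Within complex I, MT-ND2 stood at 14199, 20285 and 14195 TPM in controls and 21025, 19019 and 15211 TPM with Hmx1. The core catalytic subunits of complex IV overlapped in the same way, with MT-CO3 at 16534 to 21299 TPM in controls and 18066 to 24545 TPM with Hmx1. MT-ND6, the one mitochondrial mRNA read from the light strand, stood at 167 to 475 TPM in controls and 251 to 276 TPM with Hmx1. The median over all 13 was 0.05, against 0 over all genes tested.

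NDUFB9 stood at 343, 366 and 327 TPM in SKNAS controls and at 598, 605 and 629 TPM in SKNAS Hmx1 tumours. The arms did not overlap, and the log2 difference was 0.82 (SE 0.16, limma adjusted p = 0.0030), called in 14 of 14 alternative settings. In LAN-1 the gene stood at 231, 215 and 280 TPM in controls and 172, 175 and 225 TPM with Hmx1, and in KELLY at 190, 270 and 267 TPM and 299, 235 and 320 TPM. NDUFB9 lies on chromosome 8 at chr8:125551344-125580751 (GRCh37, plus strand). The 39 other tested genes within 5 Mb of it had a median log2 difference of 0.70 in SKNAS, -0.34 in LAN-1 and 0.14 in KELLY, beside 0.82, -0.35 and 0.24 for NDUFB9 itself. NDUFB9 overlaps TATDN1 and MTSS1 on the other strand, and the sources used here do not state whether strand was used in counting, so reads of these genes cannot be told apart.

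The other 57 nuclear members did not pass the test in SKNAS. Over all 58 the median log2 difference was -0.10, and 44 of 58 were negative. In 13 members the Hmx1 libraries all lay below the controls and in 1 all lay above, where 16% and 14.8% of all genes tested did so. On TPM rescaled without mitochondrial genes, 19 of 58 members lay below all controls and 2 above, where 17.9% and 14.3% of all genes did. NDUFA6, a subunit of the complex I arm in the matrix, came nearest to the threshold: it stood at 62.6, 79.6 and 71.4 TPM in controls and 43.5, 43.7 and 54.5 TPM with Hmx1 (log2 difference -0.58, limma adjusted p = 0.054). By complex the nuclear medians were -0.12 for complex I, 0.02 for complex II, -0.13 for complex III and -0.07 for complex IV. Cytochrome c (CYCS), the carrier between complexes III and IV, stood at 135 to 154 TPM in controls and 106 to 116.7 TPM with Hmx1, without passing.

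In LAN-1, no member was called between Hmx1 and control tumours (limma), 0 of 13 and 0 of 58, where 0.45% of all genes tested were called. At an unadjusted p under 0.05 there were 0 mitochondrial and 4 nuclear members, where 7.19% of all genes tested were. The summed neuroblastoma markers lay at 4010 to 4403 TPM in LAN-1 controls and 2832 to 3023 TPM with Hmx1, without overlap, with 0 of 8 markers called, and their part in these differences was not tested. The mitochondrial median was -0.26, against -0.05 for all genes. The low values were in replicates 2 and 3 of the Hmx1 arm: MT-CO1, the catalytic core of complex IV, stood at 10397, 10201 and 9108 TPM in controls and at 10056, 7067 and 7045 TPM with Hmx1. MT-ND6 had the lowest value, -0.99 (limma adjusted p = 0.74), with 102, 95.3 and 61.8 TPM in controls and 81.3, 30.6 and 29.7 TPM with Hmx1. Among the nuclear members far from 0 were NDUFA8 at 0.46 and UQCRB at -0.43, with limma adjusted p of 0.37 and 0.81. NDUFA8 stood at 114.2, 111.5 and 125 TPM in controls and 169, 159 and 155 TPM with Hmx1, without overlap. It passed under quantile normalization (limma adjusted p = 0.023) and median-ratio scaling (limma adjusted p = 0.038), and in none of the other alternatives run.

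In KELLY, again no member was called (limma), 0 of 13 and 0 of 58, where 0.0912% of all genes tested were called. At an unadjusted p under 0.05 there were 0 mitochondrial and 20 nuclear members, where 6.85% of all genes tested were. The 2 genomes lay on opposite sides of 0, at a median of -0.38 over the mitochondrial and 0.27 over the nuclear members, beside 0.02 over all genes. All 13 mitochondrial differences were negative in TPM. Under quantile normalization MT-CO1, MT-CO2, MT-CO3, MT-ND2, MT-ND4L and MT-ATP8 lay at 0. That method gives equal ranks equal values, so it cannot show a change in level for mRNAs that keep their top ranks. The arms of all 13 overlapped in TPM, because of control replicate 2: MT-CO2 stood at 54409, 22543 and 41674 TPM in KELLY controls and 28042, 33180 and 28605 TPM with Hmx1. Of the nuclear members 18 of 58 had all Hmx1 libraries above all controls, where 4.46% of all genes tested did, and 0 had them below, where 2.21% did. TPM is a share of a fixed total, so a lower mitochondrial share raises the TPM of all else, and its part in these counts was not tested. On TPM rescaled without mitochondrial genes, 13 of 58 members lay above all controls and 2 below, where 2.48% and 4.85% of all genes did. The farthest from 0 were NDUFC1 at 0.58, NDUFA12 at 0.54 and NDUFA6 at 0.53, with limma adjusted p of 0.46, 0.62 and 0.53. NDUFC1, a small membrane subunit of complex I, stood at 29.7, 46.4 and 39.3 TPM in controls and 55.5, 63.3 and 52.5 TPM with Hmx1. Without KELLY control replicate 2, NDUFS4 was called higher (log2 difference 0.62, limma adjusted p = 0.047).

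The difference between lines in the Hmx1 effect was itself tested. Between SKNAS and LAN-1, MT-ATP6 (-1.67, SE 0.42, limma adjusted p = 0.024) and NDUFB9 (1.17, SE 0.23, limma adjusted p = 0.0048) were called among the members, where 4.99% of all genes tested were called. Between SKNAS and KELLY, MT-ATP6 (-1.64, SE 0.42, limma adjusted p = 0.028) and NDUFA6 (-1.11, SE 0.25, limma adjusted p = 0.014) were called, where 4.85% of all genes were. These comparisons share the SKNAS libraries. NDUFA6 was lower in all SKNAS Hmx1 libraries than in their controls, by the values above, and stood at 88.8, 105 and 91.4 TPM in KELLY controls and 122.7, 120 and 175 TPM with Hmx1. The NDUFA6 call was lost in 1 of 20 alternatives, median-ratio scaling (-1.03, limma adjusted p = 0.064). The MT-ATP6 calls were lost in 9 of 19 alternatives for each pair, with limma adjusted p up to 0.11 and 0.16, and their size lay between -1.86 and -1.15 throughout. Without KELLY control replicate 2, 13 nuclear members were called lower between SKNAS and KELLY in place of 1. Between LAN-1 and KELLY no member was called (limma), where 0.209% of all genes were, with 0 mitochondrial and 8 nuclear members at an unadjusted p under 0.05, where 6.87% of all genes were.

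**Figure D3:**
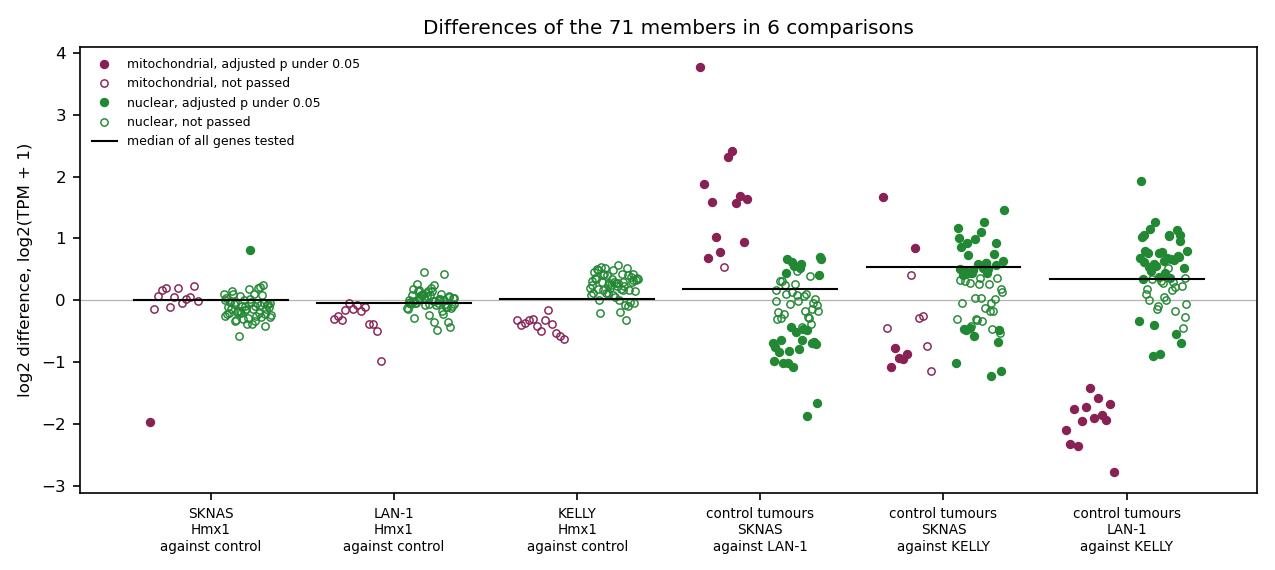
Log2 differences of the 13 mitochondrial (purple) and 58 nuclear (green) members in 6 comparisons, on the log2(TPM + 1) scale. Filled points passed a limma adjusted p under 0.05, open points did not, and black lines are the median of all genes tested. In the SKNAS Hmx1 comparison the lowest filled point is MT-ATP6 at -1.97 and the highest is NDUFB9 at 0.82.

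Control tumours of the 3 lines differed far more than arms within a line. LAN-1 had the lowest levels of the mitochondrial mRNAs, 13 of 13 below KELLY and 12 of 13 below SKNAS, where 51.8% and 52% of all genes tested were called (limma), 13.6% lower in LAN-1 than in KELLY and 31.5% higher in SKNAS than in LAN-1. With a replicate left out, the count higher in SKNAS than in LAN-1 was 8 to 11, below the 12 of the full fit. Between SKNAS and KELLY, 2 mitochondrial members were higher in SKNAS and 5 lower, where 65.7% of all genes were called, 49.5% higher and 16.1% lower. Without KELLY control replicate 2 the lower count was 10 and the higher count 1, without KELLY control replicate 1 the lower count was 2, and without SKNAS control replicate 2 the higher count was 1. These comparisons share their control libraries. TPM also shifts the whole transcriptome here: the median over all genes was 0.18 for SKNAS against LAN-1, 0.54 for SKNAS against KELLY and 0.34 for LAN-1 against KELLY. With median-ratio scaling these medians were 0.06, 0.00 and -0.04, so the calls below were also read under 4 further scalings (mitochondrial members: 3), namely FPKM, median-ratio, quantile and TPM without mitochondrial genes.

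Within complex I, MT-ND3 stood at 11504, 15809 and 9947 TPM in SKNAS controls, 2628, 2250 and 2003 TPM in LAN-1 controls and 9810, 3220 and 10057 TPM in KELLY controls. SKNAS exceeded LAN-1 by 2.42 on the log2 scale (SE 0.32, limma adjusted p = 5.1e-06) and KELLY by 0.84 (SE 0.32, limma adjusted p = 0.028), the latter lost in 6 of 13 alternatives. MT-ND2 was higher in SKNAS than in LAN-1 by 2.31 (SE 0.34, limma adjusted p = 1.7e-05), and MT-ND4 and MT-ND4L by 1.57 and 1.68. MT-ND1 was the exception, at 3342 to 4813 TPM in SKNAS and 2231 to 2931 TPM in LAN-1, without overlap but short of the threshold (0.54, SE 0.34, limma adjusted p = 0.19). MT-ND5 differed by 0.93 and MT-ND6 by 1.64 (limma adjusted p = 0.021 and 0.011). In LAN-1 against KELLY the 7 mitochondrial complex I mRNAs were lower by values between -2.78 (MT-ND6) and -1.42 (MT-ND1).

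MT-CYB, the cytochrome b core of complex III, stood at 4963 to 6272 TPM in SKNAS controls, 2971 to 3285 TPM in LAN-1 controls and 5775 to 15226 TPM in KELLY controls. Of the complex IV core, MT-CO2 exceeded LAN-1 in SKNAS by 1.59, MT-CO3 by 1.02 and MT-CO1 by 0.68 in TPM. Under quantile normalization MT-CO1 in SKNAS lay below LAN-1 by -0.58, but that method reads the rank of an mRNA and not its level. MT-CO1 stood at 13758, 19088 and 15098 TPM in SKNAS controls, 10397, 10201 and 9108 TPM in LAN-1 controls and 48270, 18983 and 40279 TPM in KELLY controls. It was lower in SKNAS than in KELLY (-1.07, SE 0.27, limma adjusted p = 0.0020) under all 4 scalings run for mitochondrial members. MT-ATP6 was higher in SKNAS than in KELLY (1.67, SE 0.29, limma adjusted p = 9.3e-05) under the same 4. MT-ATP6 stood at 1970, 1880 and 1605 TPM in LAN-1 controls and 10411, 4392 and 10099 TPM in KELLY controls. MT-ATP8 was lower in LAN-1 than in SKNAS and in KELLY, by -2.33 for the latter.
Across the scalings 8 mitochondrial members stayed called higher in SKNAS than in LAN-1, and 12 stayed called lower in LAN-1 than in KELLY. The one that did not in the latter was MT-CO1.

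The make-up of the mitochondrial mRNAs also differed between lines, and a share within the 13 does not depend on the scaling between libraries. MT-CO1, MT-CO2 and MT-CO3 together were 33.4% ± 0.807 of the 13 mRNAs in SKNAS controls and 39.7% ± 0.714 in SKNAS Hmx1 tumours, against 47.6% to 50.7% in the LAN-1 and KELLY group means (SD, n = 3). MT-ND2 took 9.55% ± 0.525 and 11.7% ± 0.0793 in the SKNAS arms and 5.67% to 6.04% elsewhere. MT-ND3 took 7.31% ± 0.875 and 7.55% ± 0.865 in SKNAS and 3.22% to 4.47% elsewhere. MT-CO1 took 9.34% to 10.8% in the 6 SKNAS libraries and 14.7% to 18.2% in the 12 others, so the ranges did not meet. MT-ND1 took 4.47% to 5.56% in the LAN-1 libraries and 2.22% to 3.54% in SKNAS and KELLY. Shares of a fixed total pull on each other, so the higher MT-ATP6 share of SKNAS controls lowers the rest. The ratio of MT-ND2 to MT-CO2, which is free of that, was 0.734 ± 0.0474 and 0.749 ± 0.0190 in SKNAS, 0.444 ± 0.0174 in LAN-1 controls and 0.331 ± 0.0892 in KELLY controls. MT-ND4L and MT-ND4, which share 7 bases and 1 mRNA, kept a ratio of 0.647 to 0.803 in all 18 libraries.

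**Figure D4:**
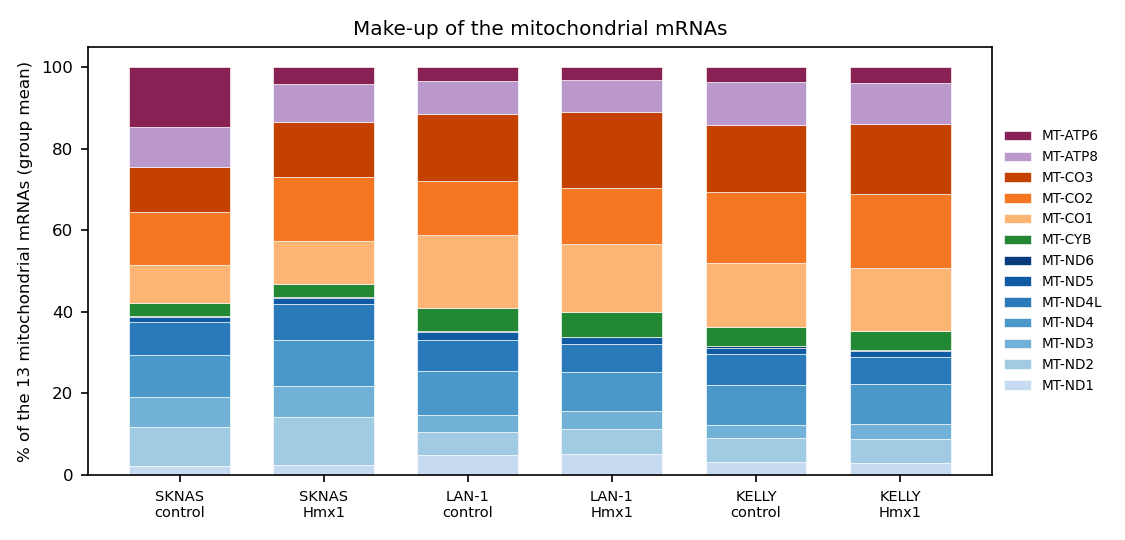
Share of each gene in the summed TPM of the 13 mitochondrial mRNAs, as group means of 3 libraries in percent. Complex I genes are blue, MT-CYB green, complex IV genes orange and ATP synthase genes purple. MT-ATP6 takes 14.7% in SKNAS controls and 3.11% to 4.03% in the other groups.

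Among the nuclear members, levels spanned from 21.7 TPM for NDUFV3, 24.4 TPM for NDUFS1 and 40.9 TPM for NDUFA10 to 792 TPM for COX6A1, 793 TPM for NDUFS5 and 879 TPM for UQCRH, as means over 18 libraries. UQCRH, the hinge protein of complex III, has a near-identical copy, UQCRHL, at 103 to 219 TPM. Reads may have been split between gene and copy, so the value of UQCRH is uncertain, to an extent that was not measured. Of the members' pseudogenes 14 passed the minimum, COX6A1P2 at 21.6 to 56.1 TPM among them. Against LAN-1, SKNAS controls had 9 nuclear members higher and 20 lower (limma), where 31.5% and 20.5% of all genes were. Against KELLY it was 25 higher and 9 lower in TPM, but 5 and 30 with median-ratio scaling, 10 and 27 under quantile normalization, 13 and 19 in FPKM and 23 and 17 without mitochondrial genes. For LAN-1 against KELLY it was 32 higher and 6 lower in TPM, 10 and 16, 14 and 15, 20 and 12 and 16 and 12 in the same order. For LAN-1 against KELLY the background in TPM was 38.2% higher and 13.6% lower. All genes moved with the scaling too: for SKNAS against KELLY 30.9% were higher and 31.0% lower with median-ratio scaling, 31.9% and 29.9% under quantile normalization, 44.4% and 22.0% in FPKM and 45.5% and 18.8% without mitochondrial genes. For LAN-1 against KELLY these shares were 23.3% and 26.5%, 26.7% and 22.99%, 31.8% and 19.7%, and 25.7% and 19.5%. The direction of the nuclear set as a whole thus depends on the scaling. Without KELLY control replicate 1, 15 were lower for SKNAS against KELLY, and without LAN-1 control replicate 1, 3 were lower for LAN-1 against KELLY. Relative to the median of all genes, 43, 42 and 23 of 58 members lay below it in the 3 comparisons.

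Calls shared by all 5 scalings were 6 higher and 16 lower for SKNAS against LAN-1, 5 and 9 for SKNAS against KELLY, and 10 and 6 for LAN-1 against KELLY. NDUFS7, UQCRC1, COX4I1, UQCR11, NDUFA11 and COX8A were lower in SKNAS than in both other lines in all of them. NDUFC1 and UQCRQ were higher in SKNAS than in both. The promoters of NDUFS7, UQCRC1, UQCRQ and COX5B are printed for reference, as the 150 bases before the start site (RefSeq, GRCh38.p14), 5′ to 3′ on the gene's strand.
NDUFS7, chr19:1383757-1383906, plus strand: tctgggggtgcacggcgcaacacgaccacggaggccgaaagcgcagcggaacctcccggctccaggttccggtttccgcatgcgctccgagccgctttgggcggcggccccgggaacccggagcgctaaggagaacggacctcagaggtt
UQCRC1, chr3:48609647-48609796, minus strand: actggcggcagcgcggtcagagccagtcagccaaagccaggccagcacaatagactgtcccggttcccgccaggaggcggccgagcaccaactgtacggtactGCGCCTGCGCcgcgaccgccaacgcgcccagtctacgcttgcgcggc
UQCRQ, chr5:132866492-132866641, plus strand: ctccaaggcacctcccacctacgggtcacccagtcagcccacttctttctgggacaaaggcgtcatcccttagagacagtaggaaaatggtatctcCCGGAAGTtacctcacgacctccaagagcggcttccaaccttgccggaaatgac
COX5B, chr2:97645912-97646061, plus strand: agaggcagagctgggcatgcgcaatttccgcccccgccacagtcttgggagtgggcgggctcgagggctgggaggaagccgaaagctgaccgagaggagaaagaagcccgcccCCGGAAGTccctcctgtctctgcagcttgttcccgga
Capitals mark letters of the NRF1 motif in UQCRC1 and of GABPA and other ETS factors (CCGGAAGT) in UQCRQ and COX5B, which are textbook regulators of respiratory genes. Both strands were searched for these and for YY1 (AAGATGGCG), and none of the 3 motifs holds another. In promoters of 300 bases, 250 before the start and 50 after, NRF1 letters stood in 12 of 49 members found in the table (24.5%) and 6.28% of all 27305 promoters. ETS letters stood in 8 of 49 (16.3%) and 4.44%, and YY1 letters in 7 of 49 (14.3%) and 1.85%. NDUFS7 and UQCRC1 are among these 7, with YY1 letters outside the 150 bases printed. A match describes letters, not binding.

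The lower complex I subunits in SKNAS included NDUFS7, which holds the last iron-sulfur cluster before ubiquinone. It stood at 16.0, 12.6 and 27.3 TPM in SKNAS controls, 62.0, 63.1 and 78.6 TPM in LAN-1 controls and 46.7, 43.3 and 38.8 TPM in KELLY controls. SKNAS lay below LAN-1 by -1.87 (SE 0.25, limma adjusted p = 5.3e-06) and below KELLY by -1.23 (SE 0.25, limma adjusted p = 0.00032), without overlap. The SKNAS Hmx1 libraries, at 20.6, 22.1 and 18.7 TPM, stayed in the low range. NDUFB11 and NDUFA11, both of the membrane arm, differed from LAN-1 by -1.08 and -1.02. NDUFC1 went the other way, at 98.9, 85.8 and 91.9 TPM in SKNAS, 68.8, 50.6 and 65.5 TPM in LAN-1 and 29.7, 46.4 and 39.3 TPM in KELLY controls. NDUFB10 stood at 147 to 170 TPM in SKNAS against 102.5 to 107.7 TPM in LAN-1 (0.61, SE 0.12, limma adjusted p = 0.00054). NDUFA4, which carries a complex I name and is now counted with complex IV, was higher in SKNAS than in LAN-1 by 0.67.

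Complex II has no mitochondrial gene. SDHD, one of its membrane anchors, stood at 62.9 to 88.3 TPM in SKNAS controls, 120 to 125 TPM in LAN-1 controls and 35.9 to 80.9 TPM in KELLY controls. SDHC, the other anchor, stood at 227 to 290, 241 to 269 and 90.9 to 186 TPM in the same order. All 4 members were called higher in LAN-1 than in KELLY in TPM, and SDHC and SDHD under every scaling.

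In complex III the 2 core proteins differed from each other. UQCRC1 stood at 73.9, 65.4 and 78.1 TPM in SKNAS controls, 244, 226 and 226 TPM in LAN-1 controls and 126, 235 and 142 TPM in KELLY controls. SKNAS lay below LAN-1 by -1.67 (SE 0.18, limma adjusted p = 4.5e-07) and below KELLY by -1.15 (SE 0.18, limma adjusted p = 2.7e-05). The ratio of UQCRC1 to UQCRC2 was 0.412 to 0.522 in the 6 SKNAS libraries and 0.912 to 1.51 in the 12 others. UQCRQ, a small subunit beside cytochrome b, was highest in SKNAS, at 455, 428.5 and 408.5 TPM, against 260, 285 and 271 TPM in LAN-1 and 128, 174 and 173 TPM in KELLY controls. UQCR10 was highest in KELLY, at 233 to 264 TPM against 148 to 162 TPM in SKNAS and 148 to 160 TPM in LAN-1.

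In complex IV, COX4I1, the common form of subunit 4, stood at 174, 192 and 159 TPM in SKNAS, 276, 278 and 294 TPM in LAN-1 and 344, 407 and 322 TPM in KELLY controls. The 3 lines did not overlap, and their order held under all 5 scalings. COX5B, a nuclear subunit that binds zinc, stood at 185, 161 and 226 TPM in SKNAS, 302, 316 and 343 TPM in LAN-1 and 67.5, 94.8 and 90.5 TPM in KELLY. It was higher in LAN-1 than in KELLY by 1.93 (SE 0.19, limma adjusted p = 3.1e-07), the farthest of the nuclear members there. The 75 other tested genes within 5 Mb of COX5B (chr2:98262503-98264846, GRCh37, plus strand) had medians of 1.20 in LAN-1 against KELLY and 1.55 in SKNAS against KELLY. For COX5B the latter difference was 1.17. Its partner COX5A stood at 122.6 to 151 TPM in SKNAS, 267 to 289 TPM in LAN-1 and 121.2 to 227 TPM in KELLY controls.

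**Figure D5:**
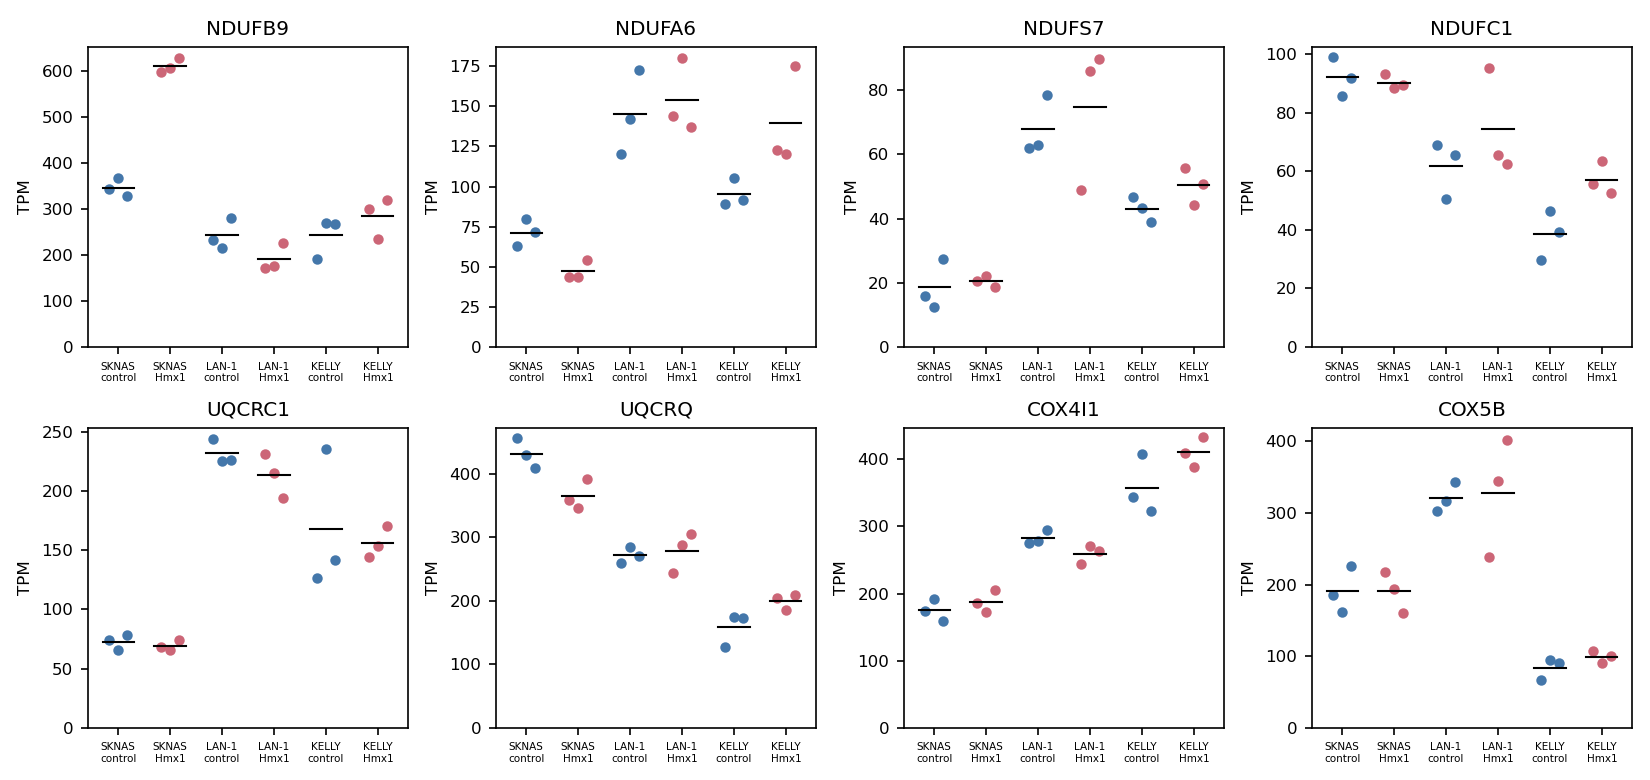
TPM of 8 nuclear members in 18 libraries by line and arm, each panel starting at 0. Points are libraries and horizontal lines group means. NDUFB9 is at 327 to 366 TPM in SKNAS controls and at 598 to 629 TPM with Hmx1, while UQCRC1 is at 65.4 to 78.1 TPM in all 6 SKNAS libraries.

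Other genes of the pathway were counted from lists, in TPM. Their counts between control lines are to be read against the shares of all genes, 31.5% higher and 20.5% lower for SKNAS against LAN-1, 49.5% and 16.1% for SKNAS against KELLY, and 38.2% and 13.6% for LAN-1 against KELLY, and they were not recounted under other scalings. None of the 18 nuclear subunits of ATP synthase passed in any line between Hmx1 and control (limma). Between control lines 1 was higher and 10 lower for SKNAS against LAN-1, 7 and 2 for SKNAS against KELLY and 11 and 1 for LAN-1 against KELLY. ATP5PB, a stalk subunit, was lower in SKNAS than in LAN-1 and KELLY by -1.31 and -1.60. Of 49 assembly factors COA3, which helps build complex IV, was called lower in SKNAS Hmx1 tumours (-0.42, limma adjusted p = 0.044, kept in 5 of 14 alternatives), and 0 passed in the other lines. Of the control line comparisons, they had 10 higher and 14 lower, 19 and 8, and 18 and 3, in the same order of comparisons. The copper chaperones SCO2 and COX17 were lower in SKNAS than in LAN-1 by -1.83 and -1.54.

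Of 7 tissue isoforms 3 passed the minimum. COX4I2, the alternative form of subunit 4, rose in SKNAS Hmx1 tumours, from 7.79, 5.89 and 9.95 TPM to 23.2, 29.02 and 21.1 TPM (1.53, limma adjusted p = 0.00039, called in 14 of 14 alternatives). As a percentage of COX4I1 it stood at 3.06% to 6.25% in SKNAS controls and 10.3% to 16.9% with Hmx1. In KELLY it was 7.53% to 13.2% and 7.98% to 9.19%, and in LAN-1 0.965% to 2.75% over both arms. Of 29 genes of mitochondrial transcription and RNA processing, 0 passed in any Hmx1 comparison. Between SKNAS and LAN-1 controls 5 were higher and 8 lower, where 31.5% and 20.5% of all genes were. Those lower included POLRMT, the mitochondrial RNA polymerase (-1.02), TFB1M (-0.91) and ELAC2, which cuts tRNAs out of the long transcript (-0.95). The 10 biogenesis regulators had 3 higher and 3 lower there, and 0 called between the Hmx1 and control arms of any line. PPARGC1A, a coactivator of mitochondrial genes, stood at 0.305 to 0.824 TPM in SKNAS, 5.56 to 7.39 TPM in LAN-1 and 1.36 to 3.45 TPM in KELLY controls. ESRRG, a nuclear receptor it works with, stood at 15.2 to 19.9, 2.33 to 2.86 and 2.38 to 4.92 TPM in the same order. Of the 7 nuclear copies of mitochondrial genes on chromosome 1, 0 passed in any Hmx1 comparison, 5 were higher in SKNAS than in LAN-1, 4 lower in SKNAS than in KELLY and 7 lower in LAN-1 than in KELLY. The mitochondrial rRNA MT-RNR2 was lower in LAN-1 than in KELLY by -1.76, and in SKNAS than in KELLY by -1.73.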

How the data were processed

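Total RNA from the tumours went into stranded mRNA libraries sequenced as read pairs, per the labels' protocols. The submitters' processing notes name bcl2fastq, FastQC, STAR and the builds GRCh38.p12 and GRCh37, with no role given. The coordinates in the files are those of GRCh37. Per the file headers, the authors give each gene a TPM and an FPKM value, and FPKM served as an alternative. Depth per library is unknown from these units, so no counting interval is given. Symbols came from identifiers through a gene name table.

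Differences were tested with limma 3.58.1 (R 4.3.3), with a mean-variance trend, on log2(TPM + 1) over genes at 1 TPM or more in at least 3 libraries. A group mean was fitted for each of 6 groups over 18 libraries, with 12 residual degrees of freedom. A gene was called at a Benjamini-Hochberg adjusted p under 0.05 over all genes tested. Fold changes of low genes are understated on this scale. The test was tried on simulated data first.

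Alternatives were a pseudocount of 0.1, no filter, a minimum of 5 TPM, TPM without mitochondrial genes (nuclear members only), FPKM, median-ratio scaling, quantile normalization, a fit of only the groups compared, and leaving out each replicate in turn. Members and lists were chosen with earlier results of these data known. Named with values were all 13 mitochondrial members, up to 8 nuclear members per direction with the largest called difference (or the 3 largest where none was called), the 3 highest and 3 lowest nuclear levels, members whose Hmx1 effect differed between lines, and up to 3 called genes per list. NDUFS4, NDUFA6 in SKNAS, SDHC and SDHD, UQCRC2, PTPRC, CD68, CD14, COX5A and CYCS in SKNAS were named after their values were seen. Some items that this rule names are not reported here.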

Additional observations from a re-analysis of the deposited data

Results flagged for a closer look

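These genes had an Hmx1 effect that differed between lines by a test of the difference itself (limma, adjusted over all genes tested). For SKNAS minus LAN-1, MT-ATP6 differed by -1.67 (limma adjusted p = 0.024) and NDUFB9 by 1.17 (0.0048), and among the pathway lists COX4I2 by 2.04 (0.0013), ESRRG by 1.02 (0.046) and the assembly factor NDUFAF7 by 0.78 (0.048). For SKNAS minus KELLY, MT-ATP6 differed by -1.64 (0.028) and NDUFA6 by -1.11 (0.014), and among the lists COX4I2 by 1.51 (0.015), COA3 by -0.72 (0.023), COA6 by -0.79 (0.038) and CYCS by -0.76 (0.041). Several of these calls were lost in some of the 20 alternatives run for nuclear genes. COX4I2 kept its call in 20 for SKNAS minus LAN-1 and in 18 for SKNAS minus KELLY, COA3 in 12, CYCS in 11, COA6 in 8, NDUFAF7 in 7 and ESRRG in 6, while NDUFB9 kept it in 20 and NDUFA6 in 19. MT-ATP6 kept it in 10 of 19 for each pair. Groups of 3 libraries were too small for a check of single outlying samples.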

How the results depend on the processing

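Of 203 named values, 2622 of 2824 recomputations kept direction and side of the threshold, 182 lost the call, 19 gained one and 1 reversed: MT-CO1, SKNAS against LAN-1, at -0.58 under quantile normalization. For the Hmx1 comparisons, nuclear members called lower in SKNAS numbered 0, and 2 without mitochondrial genes, 1 under quantile normalization and 1 in the fit of the groups compared. In LAN-1, 1 nuclear member was called higher under quantile normalization and 1 with median-ratio scaling. In KELLY the nuclear count higher ranged from 0 to 1 with a replicate left out, the 1 without control replicate 2. For SKNAS against LAN-1, quantile normalization called 1 mitochondrial member lower, and nuclear members higher were 18 without mitochondrial genes and 14 in the fit of the groups compared, against 9. With a replicate left out, mitochondrial members higher in that comparison were 8 to 11, against 12. Nuclear members were then 6 to 9 higher and 16 to 17 lower, against 9 and 20. For SKNAS against KELLY, mitochondrial members higher were 1 without a filter, in FPKM, with median-ratio scaling and in the fit of the groups compared, and 1 to 2 with a replicate left out. Those lower were 8 with median-ratio scaling and 2 under quantile normalization, and 2 (without KELLY control replicate 1) to 10 (without KELLY control replicate 2) with 1 left out. Nuclear members higher were 13 in FPKM, 5 with median-ratio scaling, 10 under quantile normalization and 13 in the fit of the groups compared, against 25. Those lower were 17 without mitochondrial genes, 19 in FPKM, 30 with median-ratio scaling, 27 under quantile normalization and 4 in the fit of the groups compared, against 9, and 8 to 15 with a replicate left out (15 without KELLY control replicate 1). For LAN-1 against KELLY, nuclear members higher were 16, 20, 10, 14 and 20 and lower were 12, 12, 16, 15 and 3 in the same order of settings, against 32 and 6, and lower ones 3 (without LAN-1 control replicate 1) to 8 with a replicate left out. For the difference of Hmx1 effects, the 1 mitochondrial call was 0 without a filter and under median-ratio scaling or quantile normalization in both pairs with SKNAS, and 0 to 1 with a replicate left out. For SKNAS minus LAN-1, 1 nuclear member was called lower without mitochondrial genes, in FPKM, under median-ratio scaling, under quantile normalization and in the fit of the groups compared. For SKNAS minus KELLY, nuclear members lower were 2 without a filter, 3 in FPKM, 0 with median-ratio scaling and 2 under quantile normalization, and 1 to 13 with a replicate left out (13 without KELLY control replicate 2). Those higher were 1 without mitochondrial genes and 1 under quantile normalization, and 0 to 1 with a replicate left out, as were mitochondrial members higher (1 without KELLY control replicate 2). Summed nuclear TPM without mitochondrial genes was 13811 in SKNAS controls, 13093 with Hmx1, 12794 in LAN-1 controls, 12743 in KELLY controls and 13817 with Hmx1, against 11361, 10900, 12000, 9509 and 11259 TPM as deposited. The cause of these changes was not tested. No paired analysis was possible because the labels give no replicate numbers.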
